A study of Mus musculus with 2 samples.

Results

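The AP-1 transcription factor genes Fos, Fosb, Fosl2, Jun, Junb and Jund and the immediate early genes Egr1, Ier2, Dusp1 and Btg2 were followed across the cell types of the mouse islet, 10 of the 31053 genes in the deposited tables. They were taken by name, but with earlier results of these data known. The counts below therefore describe the set and do not test it. Every barcode with at least 500 genes and at most 20% mitochondrial UMIs (unique molecular identifiers, 1 per captured RNA molecule) was used, with no maximum of UMIs per cell. The study dispersed islets of male C57/B6 mice aged 16 weeks, removed dead cells and sequenced the 3′ ends of the transcripts of single cells. The WT library came from mice on standard chow by the study's methods (the labels name no diet), and the HFD library from mice whose diet, begun at 6 weeks and kept for 10 weeks, drew 60% of its energy from fat. The islets of 4 mice were pooled before dispersion for each library. With 1 library per group, diet and library cannot be told apart and no test between the groups was possible. All intervals below are 95% intervals that cover counting error only.

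AP-1 is a dimer of basic leucine zipper proteins, formed by a Jun protein with a Fos protein or by a pair of Jun proteins. Immediate early genes are transcribed within minutes of a stimulus, from factors already present in the cell, and their transcripts decay quickly. In β cells glucose, cyclic AMP and calcium entry induce them, and the dissociation of a tissue induces them in most cell types. Jun is a substrate of the c-Jun N-terminal kinase (JNK) pathway.

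The WT library held 3895 barcodes and 73843674 UMIs, and the HFD library 8951 barcodes and 94375138 UMIs. The rule kept 2600 and 7297 barcodes, and the 103 and 624 of them with the highest doublet scores were left out. Of the 2497 WT and 6673 HFD cells that remained, 1926 and 5808 were β-like, and these expressed all 9 β markers, led by Ins1 and Ins2. The other classes held 72 and 231 α-like cells, 51 and 117 δ/γ-like cells, 170 and 154 endothelial-like cells, 65 and 40 ductal-like cells, and 40 and 45 macrophage-like cells. A cluster of 26 and 204 cells was led by Igkc and Trbc2. The marker rule matched it to T cells, a name not used here because its markers were mixed. It is called the lymphoid cluster below after these leading genes, which does not describe all of its cells. Its summed T cell markers stood at 178 and 1884 CPM (WT and HFD; UMIs of a gene for every 1000000 UMIs of the class) and its B cell markers at 661 and 89.6 CPM. Neutrophil markers, at 1605 CPM, were above both in WT and stood at 0 CPM in HFD. Dendritic cell markers stood at 640 and 63.0 CPM and macrophage markers at 535 and 610 CPM. Its makeup thus differed between the libraries, and its HFD to WT ratios compare unlike mixtures of cells. The α-like class carried γ markers too, summing to 194200 (WT) and 126400 CPM (HFD), beside 217400 and 287900 CPM of α markers. These γ sums exceeded those of the δ/γ-like class, 87030 and 99830 CPM. The balance of α and γ markers thus differed between the libraries. Whether γ cells lay among the α-like cells was not tested, so α-like ratios may not describe α cells alone. Fibroblast-like cells were described in WT only (59 cells). A cluster of 78 WT and 47 HFD cells matched β cells best, but had few UMIs and no β marker among its leading genes. It was left unnamed and outside the β-like class, with insulin at 73821 and 563769 CPM. Median depth was 29559 UMIs per β-like cell in WT and 11968 in HFD, and in every named class the HFD cells were shallower. The 2 libraries shared 9 barcode sequences.

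The RefSeq promoter windows of 8 of the 10 genes were found (GRCm38.p6), and those of Egr1 and Ier2 were not. Cyclic AMP responsive genes often carry the motif TGACGTCA, or its shorter core TGACG, close to the start of transcription. The windows of 5 genes that span the pattern of the results are given 5′ to 3′ on the gene's strand, and capitals mark each match to TGACGTCA or, outside it, to TGACG. They are Fos (chr12:85473710-85473889, plus strand), Dusp1 (chr17:26508520-26508652, minus strand), Btg2 (chr1:134079156-134079335, minus strand), Junb (chr8:84978749-84978928, minus strand) and Jun (chr4:95052223-95052402, minus strand).
Fos: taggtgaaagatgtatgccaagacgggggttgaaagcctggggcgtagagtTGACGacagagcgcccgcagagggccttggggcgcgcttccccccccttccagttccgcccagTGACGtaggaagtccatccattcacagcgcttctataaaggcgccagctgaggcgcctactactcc
Dusp1: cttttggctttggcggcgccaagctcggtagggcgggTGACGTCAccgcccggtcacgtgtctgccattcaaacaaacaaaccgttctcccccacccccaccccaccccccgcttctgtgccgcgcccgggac
Btg2: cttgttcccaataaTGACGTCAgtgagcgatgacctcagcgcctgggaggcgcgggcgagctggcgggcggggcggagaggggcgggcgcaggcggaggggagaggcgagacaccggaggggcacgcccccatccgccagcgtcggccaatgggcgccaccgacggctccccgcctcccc
Junb: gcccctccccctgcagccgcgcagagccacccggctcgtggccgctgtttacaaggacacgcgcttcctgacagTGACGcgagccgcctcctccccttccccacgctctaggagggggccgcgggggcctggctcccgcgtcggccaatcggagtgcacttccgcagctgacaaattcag
Jun: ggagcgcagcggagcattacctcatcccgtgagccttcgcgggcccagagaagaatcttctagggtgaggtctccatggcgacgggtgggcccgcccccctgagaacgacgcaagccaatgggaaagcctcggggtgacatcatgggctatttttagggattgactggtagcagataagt
TGACGTCA lay 143 bases before the start of Dusp1 and 166 bases before that of Btg2. TGACG lay 129 and 66 bases before the start of Fos and 106 bases before that of Junb, and once more 191 bases before that of Dusp1, outside the stretch shown. Over the 250 bases before each start and on both strands, TGACGTCA was in 2 of the 8 genes' windows and in 1.55% of 32851 promoter windows. TGACG, which TGACGTCA contains, was in 5 of 8 and in 17.8%. The AP-1 site TGACTCA was in 0 of the 8 and in 4.46% of all windows, and the CArG box, to which serum response factor binds, in 0 of 8 and in 1.47%. These counts cover only the 250 bases searched, and sites farther away were not searched. The Jund window ended 1210 bases before the start that GENCODE gives for the gene. A match is a run of letters and not evidence of binding.

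Among the classes with at least 25 cells in each library, the 10 genes together made up the smallest share of RNA in β-like cells and the largest in ductal-like and endothelial-like cells, in WT and in HFD. Their summed level in WT was 3745 CPM in β-like cells, 5582 CPM in α-like cells and 12112 CPM in δ/γ-like cells. Endothelial-like cells held 19034 CPM, ductal-like cells 21167 CPM, fibroblast-like cells 19607 CPM, macrophage-like cells 7345 CPM and the lymphoid cluster 6789 CPM. In HFD the summed level was 2080 CPM in β-like, 3260 CPM in α-like, 7886 CPM in δ/γ-like, 10288 CPM in endothelial-like, 11813 CPM in ductal-like and 3855 CPM in macrophage-like cells, and 3141 CPM in the lymphoid cluster. The endothelial-like level was thus 5.08 times the β-like level in WT and 4.95 times in HFD, and the ductal-like level 5.65 and 5.68 times. The levels are shares of each class's RNA, and insulin transcripts alone were 600974 CPM of the β-like cells in WT and 567886 CPM in HFD.

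**Figure D1:**
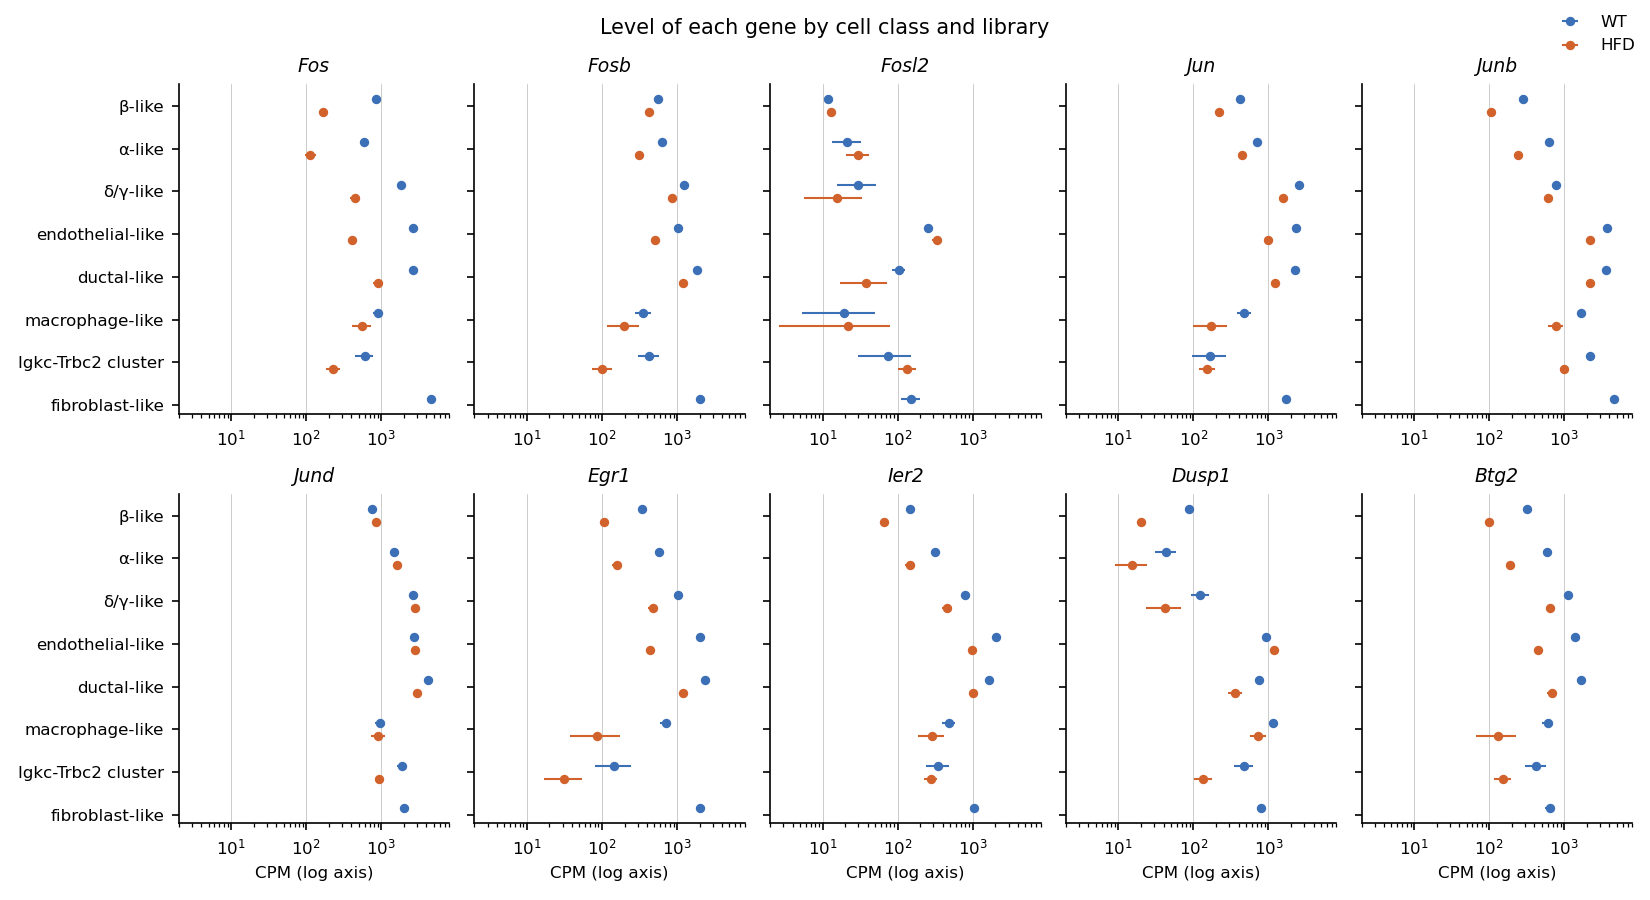
Level of each of the 10 genes (CPM, log axis) in each cell class, in the WT and the HFD library, with bars for 95% Poisson intervals that cover counting error only. Fos sits lower in HFD than in WT in every class measured in both, whereas the Jund points of the 2 libraries lie close together in most classes.

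Fos, the dimer partner that is induced fastest, ranged over 7.80-fold between classes in WT. It was highest in fibroblast-like cells (4622 CPM), followed by ductal-like (2673 CPM) and endothelial-like cells (2672 CPM), whose intervals overlapped. It stood at 1854 CPM in δ/γ-like, 904 CPM in macrophage-like, 839 CPM in β-like and 593 CPM in α-like cells, and at 598 CPM in the lymphoid cluster. The macrophage-like and β-like intervals overlapped, as did those of the lymphoid cluster and the α-like cells. Dusp1, which encodes a phosphatase that inactivates MAP kinases, had the widest range, 26.9-fold in WT and 78.2-fold in HFD. In WT it was highest in macrophage-like (1153 CPM) and endothelial-like cells (913 CPM) and lowest in β-like (87.4 CPM) and α-like cells (42.9 CPM). Jund, the Jun gene that many cells express without a stimulus, ranged over 5.69-fold in WT and 3.46-fold in HFD, and Btg2 over 5.22-fold and 6.94-fold.

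The other genes differed in which class was highest. Jun was highest in δ/γ-like cells in both libraries (2524 CPM in WT, 1577 CPM in HFD), although the WT interval overlapped that of endothelial-like cells (2325 CPM). Fosl2, a Fos-related antigen gene, was highest in endothelial-like cells in both (257 CPM and 330.4 CPM) and lowest in β-like cells (11.96 CPM and 13.1 CPM). Junb, often an antagonist of Jun in AP-1, ranged from 281 CPM in β-like to 4551 CPM in fibroblast-like cells in WT. Egr1, a zinc finger factor, and Btg2, an antiproliferative gene, were highest in ductal-like cells in both libraries. Egr1 stood there at 2364 and 1209 CPM (WT and HFD), and Btg2 at 1659 CPM and 697 CPM, the latter with an interval that overlapped that of δ/γ-like cells (648 CPM). Ier2, a short nuclear protein gene, was lowest in β-like cells in both (145 CPM and 66.8 CPM). Fosb, which encodes a Fos family protein that outlasts Fos in many cells, was higher in α-like than in β-like cells in WT (637 CPM against 563 CPM) and lower in HFD (309 CPM against 426 CPM).

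Lower levels in HFD ran through all 7 classes that had at least 25 cells in each library. A gene was called lower where its CPM in HFD was at least 1.5-fold below that in WT and the whole counting interval of the ratio was below 1, among genes with at least 20 UMIs. Of the 68 pairs of gene and class with enough UMIs, 52 were called lower and 0 higher. Fos, Egr1 and Btg2 were lower in all 7 classes, whereas Jund was lower in the lymphoid cluster alone and Fosl2 in ductal-like cells alone. The counts were 7 of 10 in β-like cells, where 5.96% of all 13480 genes compared were lower and 3.12% higher, and 8 of 10 in α-like cells (background 5.36%). They were 6 of 9 in δ/γ-like cells (3.89%), 7 of 10 in endothelial-like cells (6.56% lower, 4.25% higher) and 9 of 10 in ductal-like cells (8.62%). They were 8 of 9 in macrophage-like cells (5.88%) and 7 of 10 in the lymphoid cluster (14.4%). The share of all genes called higher ran from 1.7% in α-like cells to 6.95% in the lymphoid cluster.

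Over the members compared in each class, the HFD to WT ratio had a median log2 of −1.26 in β-like, −1.23 in α-like, −0.79 in δ/γ-like, −1.04 in endothelial-like, −0.93 in ductal-like and −0.86 in macrophage-like cells, and −1.29 in the lymphoid cluster. Over all genes compared the median lay between −0.22, in ductal-like cells, and −0.03. The summed level fell by 0.85 on the log2 scale in β-like cells (−0.86 to −0.84) and by 0.62 in δ/γ-like (−0.68 to −0.55) and 0.93 in macrophage-like cells (−1.10 to −0.76). The drop of the sum was smaller than that of the median gene in 6 of the 7 classes, the exception being the macrophage-like cells.

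**Figure D2:**
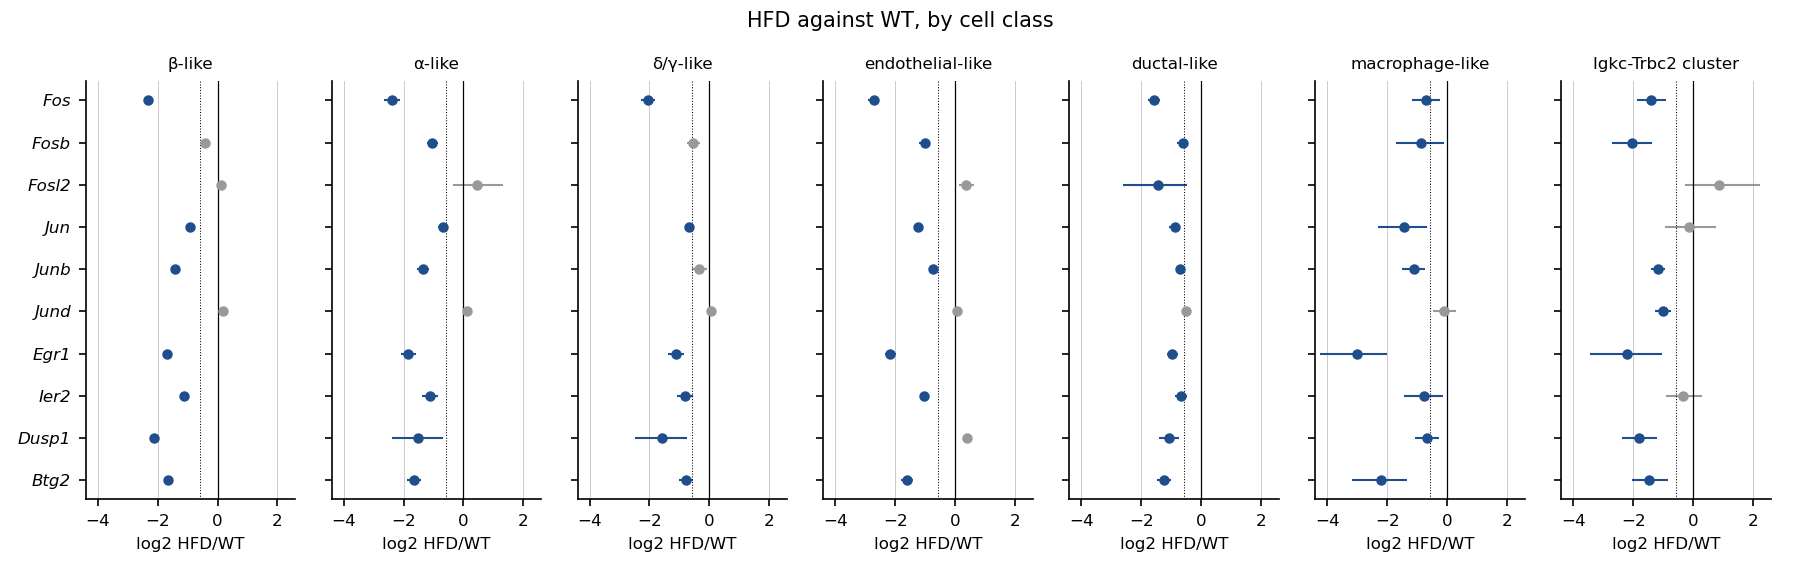
log2 ratio of HFD to WT for each of the 10 genes in each of the 7 cell classes, with 95% intervals that cover counting error only and a line at 0. Fos, Egr1 and Btg2 lie below 0 in all 7 classes, and Dusp1 lies at 0.38 in endothelial-like cells and below 0 elsewhere.

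Among the Fos genes, Fos stood in β-like cells at 839 CPM (WT) and 166 CPM (HFD), a log2 ratio of −2.33 (−2.36 to −2.31). In α-like cells it was 593 and 114 CPM (−2.38, −2.66 to −2.11), and the difference from β-like cells held 0 (−0.05, −0.32 to 0.22). In endothelial-like cells it went from 2672 to 405 CPM (−2.72), in δ/γ-like cells from 1854 to 451 CPM (−2.04) and in ductal-like cells from 2673 to 899 CPM (−1.57). The smallest change was in macrophage-like cells, 904 and 555 CPM (−0.70, −1.18 to −0.25), which was 1.63 (1.18 to 2.08) above the β-like ratio. Fosb differed less, from 563 to 426 CPM in β-like cells (−0.40) and from 1031 to 510 CPM in endothelial-like cells (−1.02), and was called lower in 5 of 7 classes. Fosl2 stood at 11.96 and 13.1 CPM in β-like cells (0.13, −0.0048 to 0.27) and at 257 and 330.4 CPM in endothelial-like cells (0.36, 0.11 to 0.62). In ductal-like cells it was 104 and 37.8 CPM (−1.46), the HFD value resting on 9 UMIs.

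Among the Jun genes, Jun fell from 417 to 222 CPM in β-like cells (−0.91, −0.94 to −0.88) and from 2325 to 973 CPM in endothelial-like cells (−1.26). It was lower in 6 of 7 classes, and in the lymphoid cluster its interval held 0 (−0.14, −0.95 to 0.75). Junb went from 281 to 106 CPM in β-like (−1.40) and from 623 to 244 CPM in α-like cells (−1.35). In δ/γ-like cells it stood at 770 and 607 CPM (−0.34), 1.06 (0.81 to 1.31) above the β-like ratio. In β-like cells Jund stood at 744 CPM (WT) and 854 CPM (HFD) (0.20, 0.18 to 0.22), at 1475 and 1610 CPM in α-like cells (0.13), and at 2713 and 2806 CPM in endothelial-like cells (0.05, −0.03 to 0.13). Jund therefore took a larger share of the UMIs of the 3 Jun genes in HFD, from 51.6% to 72.2% in β-like, 52.5% to 70.1% in α-like and 31.1% to 47.0% in endothelial-like cells. In the lymphoid cluster Jund went from 1910 to 944 CPM (−1.02), which became −0.61 with TMM scaling and −0.58, short of the 1.5-fold threshold, with median of ratios scaling. Genes on the opposite strand overlap Jun (Junos), Junb (Prdx2), Jund (Gm11175) and the long annotated locus of Dusp1 (Gm8225, Ergic1), and the strand setting of the counting is not given in the sources used here.

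Among the other immediate early genes of the set, Egr1 fell from 339 to 105 CPM in β-like cells (−1.69, −1.73 to −1.65) and from 1997 to 442 CPM in endothelial-like cells (−2.17). In macrophage-like cells it went from 703 to 87.1 CPM (−3.01, −4.25 to −1.996), on 144 and 8 UMIs. Btg2 was 318 and 100.4 CPM in β-like cells (−1.66) and 601 and 131 CPM in macrophage-like cells (−2.20). Ier2 was 145 and 66.8 CPM in β-like cells (−1.12) and 2068 and 991 CPM in endothelial-like cells (−1.06). Dusp1 was 87.4 and 19.9 CPM in β-like cells (−2.13, −2.21 to −2.05), 42.9 and 15.2 CPM in α-like cells (−1.50), and 748 and 357 CPM in ductal-like cells (−1.07). In endothelial-like cells Dusp1 was 913 CPM in WT and 1184 CPM in HFD (0.38, 0.24 to 0.51), short of the 1.5-fold threshold but in the other direction. The endothelial-like ratio exceeded the β-like ratio by 2.51 (2.35 to 2.66). Pericyte markers were also found in the endothelial-like cells, all 6 of them, with a summed level of 2515 CPM in WT and 2830 CPM in HFD, and their part in these values was not tested.

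The amount that free RNA from broken β cells could add was bounded with insulin, which stood in the non-β classes at 0.70% to 11.1% of its β-like level. If all of it were free β-cell RNA, the 10 genes carried along would make up under 5% of 116 of the 120 class values, and 12.8% at most, for Fosb in the lymphoid cluster of HFD.

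The share of cells with a Fos UMI gave the same order of libraries once each cell was thinned to 2000 UMIs. Cells under 2000 UMIs were left out, 41 of 154 endothelial-like, 20 of 45 macrophage-like and 141 of 204 lymphoid cells of HFD among them, so that the HFD shares of these classes rest on their deeper cells. In β-like cells it was 68.9% in WT (66.7 to 70.9) and 21.9% in HFD (20.8 to 23.0), against 88.9% and 57.2% before thinning. In α-like cells it was 62.5% and 15.4%, in endothelial-like cells 83.5% (76.8 to 89.0) and 45.1% (35.7 to 54.8), and in ductal-like cells 96.9% and 65.6%. The macrophage-like shares, 57.9% (40.8 to 73.7) and 40.0% (21.1 to 61.3), overlapped. No class lacked Fos and could serve as a blank. The bound from insulin covers free RNA of β-like makeup in the non-β classes only, and free RNA of other classes was not bounded. The share with a Dusp1 UMI went from 14.4% to 3.85% in β-like cells and from 73.4% to 86.7% in endothelial-like cells. The share with a Jund UMI was 74.8% and 79.3% in β-like cells.

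**Figure D3:**
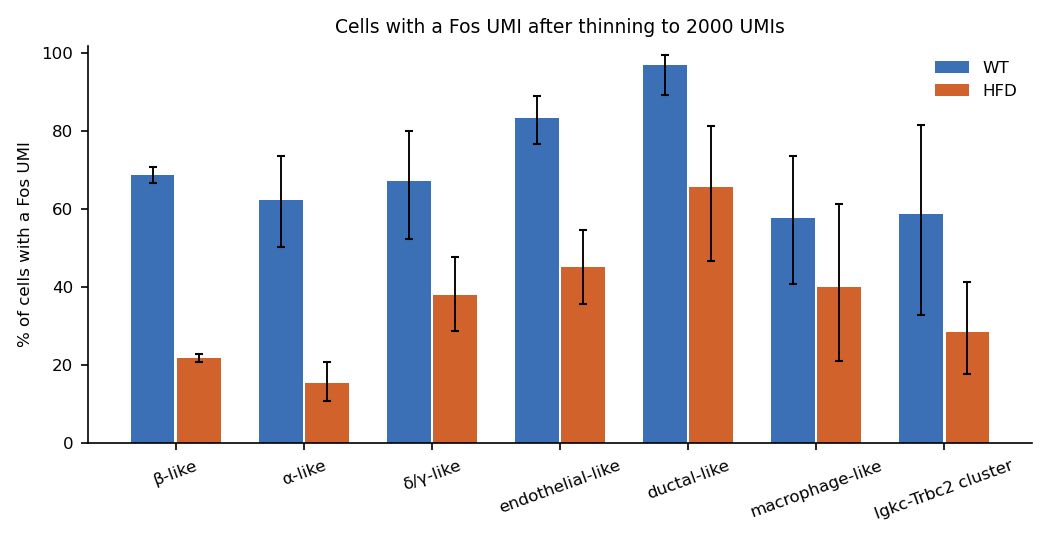
Percentage of cells with at least 1 Fos UMI after thinning each cell to 2000 UMIs, by cell class and library, with exact binomial 95% intervals that cover counting error only. The β-like share is 68.9% in WT and 21.9% in HFD, and the intervals of the macrophage-like cells overlap.

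Within β-like cells the difference in Fos was spread over many cells. With each cell thinned to 10000 UMIs, the median WT cell held 8 Fos UMIs and the 90th percentile 17 (1769 cells), and the median HFD cell held 1 and the 90th percentile 4 (3727 cells). Across these β-like cells Fos varied together with Egr1 (Pearson r of the square roots of the thinned counts 0.67 in WT and 0.54 in HFD, over 1769 and 3727 cells of 1 library each). In WT it also varied with Fosb (0.59) and Btg2 (0.58), while for Jund r was −0.20 in WT and 0.16 in HFD.

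The β-like cells of the 2 libraries were not of like depth, and depth was therefore held in ranges. In WT, Fos stood at 820 CPM in cells of up to 5000 UMIs, 895 CPM from 5000 to 10000, 746 CPM from 10000 to 15000, 897 CPM from 15000 to 30000 and 819 CPM above. In HFD the same ranges gave 208, 225, 163, 152 and 108 CPM, so that every WT value was above every HFD value. Between 5000 and 15000 UMIs the log2 ratio of Fos was −2.07, and 7 of the 10 genes were lower (background 10.9%). Between 15000 and 30000 UMIs it was −2.56, and 7 of 10 were again lower (11.3%). The log2 ratio of Jund was −0.07 (−0.15 to 0.01) in the first of these ranges and 0.08 (0.05 to 0.11) in the second. By mitochondrial share the Fos ratio was −2.65 in cells of 0 to 3%, −2.13 in cells of 3 to 6% and −1.84 in cells of 6 to 20%. The genes called lower in these ranges were 8 of 10 (4.75%), 7 of 10 (4.57%) and 6 of 10 (2.66%).

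The clusters that held most WT and most HFD β-like cells differed. The WT cells lay mostly in clusters 0, 6, 8 and 12, and the HFD cells in clusters 14, 5, 4, 17, 3 and 20, although the 10 genes and the related lists had been left out of the clustering. In the 4 clusters with at least 25 cells of each library, Fos was lower in HFD. Its log2 ratio was −1.77 in cluster 0 (699 WT and 115 HFD cells), −1.956 in cluster 2 (30 and 191), −1.79 in cluster 6 (602 and 347) and −2.22 in cluster 12 (193 and 340), whose leading genes were Ins2, Ins1 and Ghrl, the ghrelin gene. The genes called lower were 7 of 10 in cluster 0, 6 of 10 in cluster 2, 6 of 10 in cluster 6 and 7 of 10 in cluster 12, against backgrounds of 0.94%, 2.25%, 1.54% and 5.26%. Jund was called higher in cluster 0 (0.61, background 6.29% higher) and Fosl2 in cluster 6 (0.67, background 7.04% higher).

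**Figure D4:**
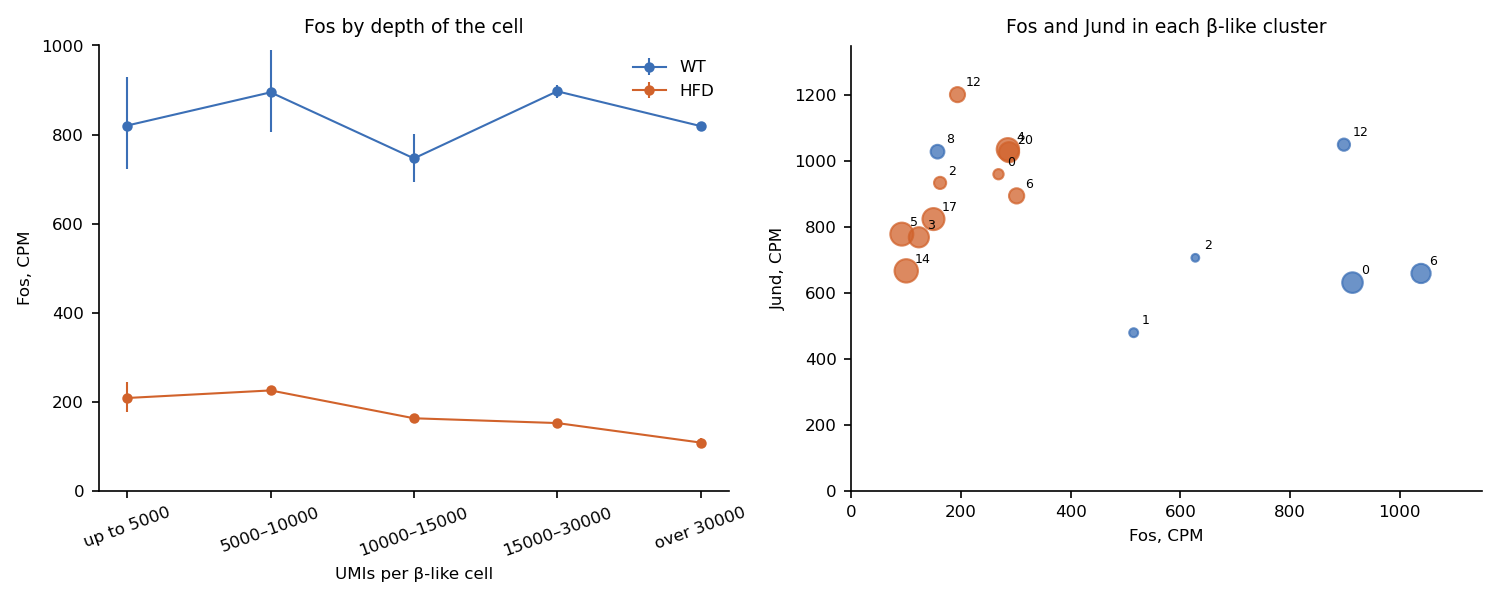
Left, Fos (CPM) in β-like cells by range of UMIs per cell, WT and HFD, with 95% intervals that cover counting error only. Right, Fos against Jund (both CPM) in each β-like cluster of at least 25 cells of a library, with the cluster number beside each point and the point size growing with the number of cells; WT cluster 8 lies with the HFD points at 157 CPM of Fos.

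One group of WT β-like cells had low levels too. Cluster 8 held 266 of the 1926 WT β-like cells (13.8%, exact binomial 12.3 to 15.4) and 3 HFD cells. The 6 genes with the highest ratio to the other WT β-like cells were Ifit1 (log2 ratio 3.77), Ifit3 (3.20), C78859 (3.10), Oasl2 (3.01), Rtp4 (2.96) and Cxcl10 (2.93). Ifit1, Ifit3, Oasl2 and Cxcl10 are known as genes that interferon induces, and no list of such genes was tested. Its Fos level was 157 CPM against 937 CPM in the other 1660 WT β-like cells (−2.58, −2.66 to −2.50). Egr1 (−2.06), Dusp1 (−2.06), Ier2 (−1.98), Jun (−1.64), Btg2 (−1.61), Fosb (−1.59) and Junb (−1.16) were lower there as well, while Jund (0.55, 0.51 to 0.58) and Fosl2 (0.63) stood above. The 10 genes summed to 1956 CPM in this cluster and to 4003 CPM in the other WT β-like cells. Its cells came from the same library, with a median of 25046 UMIs and 3.74% mitochondrial UMIs.

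The study examined cholecystokinin (Cck) and Jun in β cells of obese mice. It reports that Jun and Fos rose along a trajectory inferred from WT through HFD to leptin-deficient obese mice. It also reports that JNK inhibition lowered pancreatic Cck in the latter mice. That trajectory used denoised expression and samples not used here. It is thus another measure than the HFD to WT ratios above, in which Jun (−0.91) and Fos (−2.33) were lower in β-like cells. In HFD, 52 of 5808 β-like cells (0.895%, exact binomial 0.669 to 1.17, median 11968 UMIs) had a Cck UMI, 30 of them a single one. The share in HFD endothelial-like cells was 1.30% (0.158 to 4.61, median 3374 UMIs), and in WT β-like cells 0.104%. The endothelial-like share rests on 2 of 154 cells, and its interval holds the β-like share, so the shares do not separate these classes. The HFD β-like cells held 115 Cck UMIs, up to 19 in a cell, and the 2 endothelial-like cells held 1 each. A Cck UMI in a cell is not read here as expression. Jun stood at 149 CPM in the 52 cells and at 223 CPM in the 5756 without a Cck UMI (log2 ratio −0.59, −0.83 to −0.35). Fos stood at 99.5 and 167 CPM (−0.75, −1.05 to −0.46), all from 1 library. Each of the 10 genes stood lower in the 52 cells, Jund at 692 and 856 CPM (−0.31, −0.42 to −0.20). The intervals of Fosl2 and Btg2 held 0. The 52 cells were deeper, with a median of 16790 UMIs against 11940. Over all HFD β-like cells, Fos was 225 CPM at 5000 to 10000 UMIs and 108 CPM above 30000, and Jun 288 and 174 CPM. The part of depth in the values of the 52 cells was not tested.

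The genes most like the summed level of the 10 over the 15 sums of class and library were Nr4a1, an orphan nuclear receptor gene of the immediate early response (r = 0.949), Tubb2a (0.906), Aldoa (0.896), Ccnl1 (0.893) and Ppp1r10 (0.886), among 1187 genes. The 15 sums share 2 libraries and differ in depth.

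Among 37 other immediate early genes, 17 were lower and 0 higher in β-like cells, with a median log2 ratio of −0.54, against 5.96% lower over all genes. The lowest were Zfp36, which promotes the decay of AU-rich mRNAs (−1.79), the kinase gene Sik1 (−1.72) and Socs3, an inhibitor of cytokine signalling (−1.57). In endothelial-like cells 15 of 36 were lower and 5 higher (all genes 6.56% and 4.25%), the latter Fosl1 (1.32), Crem (1.03), Ier3 (0.81), Klf10 and Nfkbia, of which Klf10 and Nfkbia were named after their values were seen. The lowest there were Cyr61 (−2.93), Klf2 (−2.18) and Zfp36 (−1.92). In α-like cells 16 of 31 were lower and 1 higher (all genes 5.36% and 1.7%), in δ/γ-like cells 6 of 26 were lower and 3 higher (3.89% and 2.67%), and in ductal-like cells 12 of 36 were lower and 3 higher (8.62% and 4.32%). In macrophage-like cells 12 of 22 were lower and 0 higher (5.88% and 5.81%), and in the lymphoid cluster 17 of 23 were lower and 0 higher (14.4% and 6.95%). The genes higher in α-like, δ/γ-like and ductal-like cells were named after their values were seen and were Gadd45a in α-like cells, Klf10, Gadd45b and Nfkbia in δ/γ-like cells, and Gadd45a, Myc and Fosl1 in ductal-like cells.

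The basic leucine zipper genes that can pair with AP-1 proteins had a median log2 ratio of −0.21 in β-like cells and 0.05 in endothelial-like cells, where Atf3 was lower (−1.34) and Crem higher among 13 (all genes 6.56% and 4.25%). Atf3, Crem and Maff are also among the other immediate early genes above, so the calls of Atf3 and Crem are counted in both lists. Of the kinases and serum response factors upstream, 0 of 19 were lower or higher in β-like cells, where Mapk3, which encodes ERK1, stood at −0.24 and Mapk10, which encodes JNK3, at 0.50. In endothelial-like cells Elk4 (0.67) was higher among 16, where 4.25% of all genes were higher. Of the phosphatase and Sprouty genes that restrain MAP kinases, Spry2 was lower (−0.81) and Dusp14 (0.61) and Dusp16 (0.70) higher among 12 in β-like cells, where 5.96% of all genes were lower and 3.12% higher. In endothelial-like cells Spry1 (−1.80), Spry2 and Dusp7 (−0.82) were lower and Dusp5 (0.66) higher among 10, against 6.56% lower and 4.25% higher over all genes.

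Heat shock genes, some of which are also induced when tissue is dissociated, were a further list. Its median does not measure that response alone. In β-like cells 0 of 14 were lower and 1, Hsph1 (0.61), was higher, and Hspa1a stood at −0.02. In endothelial-like cells Hspa1a (−1.97), Hspa1b (−1.61) and Dnajb1 (−1.49) were lower, 3 of 14. Over all genes the shares were 5.96% lower and 3.12% higher in β-like cells and 6.56% lower in endothelial-like cells. In δ/γ-like cells 3 of 14 were lower and 1 higher (all genes 3.89% and 2.67%), and in macrophage-like cells 4 of 12 were lower (5.88%). In ductal-like cells 1 was lower and 4 were higher of 14 (8.62% and 4.32%). In α-like cells 1 was lower and 1 higher of 14 (5.36% and 1.7%). The 1 of 14 lower in ductal-like and in α-like cells is near these shares. In the lymphoid cluster 2 were lower and 3 higher of 8 (14.4% and 6.95%). The time from dissection to capture is not in the labels, and its part in these levels was not tested.

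**Figure D5:**
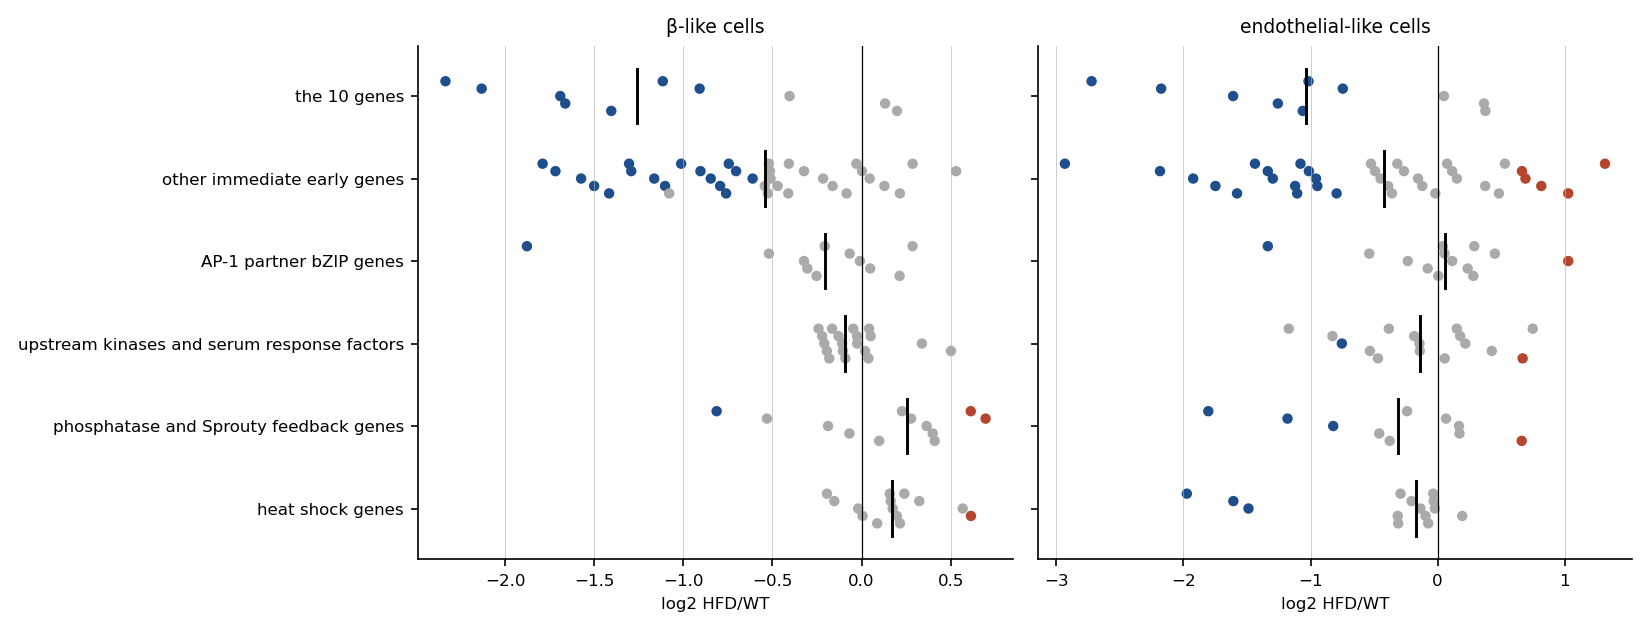
log2 ratio of HFD to WT of each gene of the 10 and of 5 related lists in β-like (left) and endothelial-like cells (right), with blue points called lower, red points called higher, grey points neither, and a black bar at the median of each list. The median of the 10 genes is −1.26 and −1.04, and that of the heat shock genes 0.17 and −0.17.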

How the data were processed

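Single cell 3′ libraries of pooled islets, 1 WT and 1 HFD, were deposited by the authors as UMI counts per gene and barcode, which per the labels were made with Cell Ranger 3.0.2 on mm10. The strand setting is not given in the sources used here. The deposited counts hold barcodes under the rule, and no sample outside these 2 groups was used. Total UMIs were 73843674 and 94375138.

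Cells were clustered with scanpy 1.11.5 (2000 variable genes, 50 components, 15 neighbours, Leiden resolution 1, leidenalg 0.10.2, Python 3.11.15), without the 10 genes and the related lists. Clusters were named from marker lists where at least 3 markers were detected, and the naming rule was revised after the clusters were seen. Scrublet called 1 and 0 doublets, which was taken as failure, so the barcodes with the highest scores (3.11% and 7.16%) were left out. The members and lists were chosen with earlier results of these data known. UMIs were summed per class and library and divided by the class total (CPM). Ratios carry exact conditional Poisson intervals, shares Clopper-Pearson intervals (scipy 1.17.1), all at 95% and covering counting error only. The ratio and interval script was tested on simulated counts. Genes named outside the 10 were the 3 lowest and 3 highest ratios of each list with at least 100 UMIs, the genes called and the 5 most like the summed members. Alternatives were other filters of cells and UMIs, resolutions of 0.5 and 2, TMM (edgeR 4.0.16), median of ratios (DESeq2 1.42.0), a 2-fold call, thinning, and, added after the clusters were seen, leaving out single β-like clusters. Promoter windows came from RefSeq on GRCm38.p6 and were searched on both strands, and bases inside a GENCODE exon were cut off. Some genes of the related lists are not reported here.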

Additional observations from a re-analysis of the deposited data

Results flagged for a closer look

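The log2 ratio of HFD to WT went one way in one class and the other way in another for 3 of the genes. Dusp1 stood at −2.13 in β-like cells and 0.38 in endothelial-like cells. The difference, 2.51 (2.35 to 2.66), lies outside counting error, but it was not tested over libraries, of which each group had 1. Jund stood at 0.20 in β-like cells and −1.02 in the lymphoid cluster, whose T cell, B cell and neutrophil markers differed in level between the libraries. Fosl2 stood at 0.36 in endothelial-like cells and −1.46 in ductal-like cells, where the HFD value rests on 9 UMIs. The Jund and Fosl2 differences were likewise not tested over libraries.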

How the results depend on the processing

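No paired analysis was possible because each group had 1 library. No value changed sign among the called results. Members called lower ranged over all alternatives run from 6 to 8 in β-like, 7 to 8 in α-like, 3 to 7 in δ/γ-like, 6 to 7 in endothelial-like, 4 to 9 in ductal-like and 4 to 8 in macrophage-like cells and 5 to 7 in the lymphoid cluster. A 2-fold call left 3 members in δ/γ-like, 4 in ductal-like and 4 in macrophage-like cells. It left 10 of the other immediate early genes in β-like, 9 in α-like and 6 in macrophage-like cells, and 0 heat shock genes in α-like, δ/γ-like and ductal-like cells and the lymphoid cluster. The β-like median was −1.17 with at most 15000 UMIs per cell, −1.38 without cluster 8 (chosen after seeing the data), −1.21 with median of ratios scaling and −1.42 with totals free of hormone and mitochondrial genes. The α-like median was −1.51 at resolution 2. The lymphoid median was −0.88 with TMM and −0.85 with median of ratios, and no heat shock gene was lower there with either (0). TMM moved that cluster's ratios by 0.41, and Jund in it to −0.61.

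Other immediate early genes lower in α-like cells were 7 with cells thinned to 2000 UMIs, 10 with median of ratios and 9 with at least 100 UMIs. In δ/γ-like cells they were 15 at resolution 0.5, where the cluster so named grew from 51 to 237 WT and from 117 to 455 HFD cells and its counts are no longer those of the class above, 1 thinned and 2 with at least 100 UMIs, and in the lymphoid cluster 9 thinned and 5 with at least 100 UMIs. Heat shock genes lower were 2 in β-like and 4 in ductal-like cells with at most 15000 UMIs, 2 in ductal-like cells and 1 in the lymphoid cluster when thinned, and 0 in δ/γ-like cells at resolution 0.5.

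The share of cells with a Fos UMI depends on the thinning by construction. At 1000 UMIs it was 50.4% (WT) and 13.6% (HFD) in β-like, 48.6% and 8.22% in α-like, 67.7% and 27.5% in endothelial-like and 83.1% and 35.9% in ductal-like cells, and in HFD 25.6% in δ/γ-like cells and 17.8% in the lymphoid cluster. At 4000 UMIs it was 79.6% and 34.1% in β-like, 76.8% and 27.4% in α-like and 90.1% and 72.9% in endothelial-like cells, and in WT 84.8% in δ/γ-like and 78.1% in macrophage-like cells. It was 23.1% in HFD β-like cells with no doublets left out, and 100% in WT ductal-like cells with at most 15000 UMIs. Beside these 52 values, 434 stayed within their limits. Of the log2 ratios of single genes, 93 moved and 630 stayed. Over 13 alternatives in β-like cells, Fos ran from −2.49 to −2.10, Fosb from −0.66 to −0.31 and Jund from 0.03 to 0.28. The β-like ratio of Fosl2, which was not called, ran from −0.35 to 0.52. These ranges are wider than the counting intervals given above. The causes of the shifts in medians, counts and ratios were not tested. Classes under 25 cells in a library gave no value, as the macrophage-like cells did with at least 1000 genes per cell. Depth limits the macrophage-like and lymphoid values, where single genes rest on few UMIs.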
